A study of Homo sapiens with 12 samples.

Results

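SW48, a human colorectal cancer cell line labelled as wild type for p53, was examined for its response to 8 h of 10 µM Nutlin-3a. The response was taken as 2 Nutlin-3a arrays minus 2 untreated arrays, 4 of the 12 arrays of the series, over every probe set paired with a single gene symbol (14530 of 37270 probe sets, 39.0%). After 1 probe set had been kept for each symbol, 14118 genes were compared. RNA was profiled on Affymetrix Human Gene 2.0 ST arrays, and the same untreated and Nutlin-3a groups, 2 arrays each, exist for HCT116 and RKO, also colorectal cancer lines labelled as wild type for p53. Whether the duplicates came from different cultures is not stated in the labels, so the p-values measure only the spread between these samples, which may be technical. All values are the deposited log2 signals, and every change is a difference of such signals with its standard error (n = 2 arrays per group).

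The p53 protein is a transcription factor that is kept scarce by the ubiquitin ligase MDM2. Nutlin-3a occupies the pocket of MDM2 that binds p53, so that p53 accumulates without DNA damage. Accumulated p53 binds paired half-sites in DNA and turns on genes of cell cycle arrest, apoptosis, DNA repair, metabolism and autophagy. The arrest arm works through p21 and the retinoblastoma family proteins, which hold E2F factors in repressive complexes, and E2F target genes encode much of the DNA replication machinery. MIR34A, a microRNA gene, is a widely studied direct p53 target, and MIR3189 is a microRNA gene located in an intron of GDF15.

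The sequences of microRNAs and promoters of some of the named genes are given here, credited to RefSeq with build GRCh38.p14. The mature microRNAs of the 2 microRNA genes with large rises are printed with the seed (bases 2 to 8) in capitals. The 4 seeds differ from each other. The arms of miR-34a lie at chr1:9151735-9151756 and chr1:9151693-9151714 on the minus strand. Those of miR-3189 lie at chr19:18386570-18386594 and chr19:18386607-18386627 on the plus strand.
hsa-miR-34a-5p: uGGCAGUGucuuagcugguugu
hsa-miR-34a-3p: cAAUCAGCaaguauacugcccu
hsa-miR-3189-5p: uGCCCCAUcugugcccuggguagga
hsa-miR-3189-3p: cCCUUGGGucugaugggguag

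Promoter windows of 300 bases, from 250 before to 50 after the annotated start, are shown for genes that moved in opposite directions. The first pair rose and carried the p53 consensus, a pair of 10-base half-sites, here in capitals. In PURPL (chr5:27472042-27472341, plus strand), a long noncoding RNA, the half-sites began 127 and 117 bases before the start. In AEN (chr15:88621090-88621389, plus strand), which encodes the apoptosis-enhancing nuclease, they began 34 and 24 bases before it.
PURPL: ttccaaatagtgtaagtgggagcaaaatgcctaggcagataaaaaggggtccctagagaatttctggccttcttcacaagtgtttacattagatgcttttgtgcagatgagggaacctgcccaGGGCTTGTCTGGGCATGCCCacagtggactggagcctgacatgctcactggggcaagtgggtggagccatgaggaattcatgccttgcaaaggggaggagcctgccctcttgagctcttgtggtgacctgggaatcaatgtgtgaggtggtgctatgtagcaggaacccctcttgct
AEN: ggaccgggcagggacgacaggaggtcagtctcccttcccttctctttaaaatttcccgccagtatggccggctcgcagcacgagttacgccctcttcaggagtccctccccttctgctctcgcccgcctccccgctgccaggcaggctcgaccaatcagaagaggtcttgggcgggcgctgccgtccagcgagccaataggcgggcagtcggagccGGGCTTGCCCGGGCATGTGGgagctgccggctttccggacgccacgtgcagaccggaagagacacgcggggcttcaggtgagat

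The next 4 windows belong to genes that fell, and the capitals mark E2F motif words on either strand. The window of AEN, a gene that rose, also holds 1 such word, left in small letters above. In E2F1 (chr20:33686336-33686635, minus strand) the words began 33 and 20 bases before the start. In ZNF367 (chr9:96418321-96418620, minus strand) they began 35 and 21 bases before it. DTL (chr1:212035498-212035797, plus strand) had 1 word, which began 8 bases before the start. MSH6 (chr2:47782895-47783194, plus strand) had 1 word, which began 3 bases after the start.
E2F1: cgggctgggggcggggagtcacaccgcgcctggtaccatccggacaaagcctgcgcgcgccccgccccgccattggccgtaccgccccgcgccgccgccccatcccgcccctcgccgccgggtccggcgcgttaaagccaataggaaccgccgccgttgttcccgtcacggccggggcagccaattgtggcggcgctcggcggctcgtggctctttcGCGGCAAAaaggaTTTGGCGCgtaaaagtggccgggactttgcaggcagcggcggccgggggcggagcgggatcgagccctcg
ZNF367: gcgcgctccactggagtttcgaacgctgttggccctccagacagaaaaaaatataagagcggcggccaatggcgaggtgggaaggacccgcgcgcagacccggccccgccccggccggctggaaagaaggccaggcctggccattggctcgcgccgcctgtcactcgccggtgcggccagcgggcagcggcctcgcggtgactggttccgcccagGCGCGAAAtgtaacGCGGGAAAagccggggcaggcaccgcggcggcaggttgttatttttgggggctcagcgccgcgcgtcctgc
DTL: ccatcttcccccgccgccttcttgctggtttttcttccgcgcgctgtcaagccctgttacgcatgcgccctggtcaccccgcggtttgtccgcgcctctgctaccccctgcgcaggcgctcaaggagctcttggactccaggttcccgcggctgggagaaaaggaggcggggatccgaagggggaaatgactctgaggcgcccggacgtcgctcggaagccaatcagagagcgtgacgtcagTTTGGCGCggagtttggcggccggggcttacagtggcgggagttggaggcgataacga
MSH6: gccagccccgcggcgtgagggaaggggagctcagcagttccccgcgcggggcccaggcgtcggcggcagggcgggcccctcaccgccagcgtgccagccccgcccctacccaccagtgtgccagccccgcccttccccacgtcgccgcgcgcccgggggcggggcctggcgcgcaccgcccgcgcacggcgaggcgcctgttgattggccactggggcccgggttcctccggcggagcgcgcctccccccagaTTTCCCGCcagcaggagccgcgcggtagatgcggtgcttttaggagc

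The SW48 arrays were alike within each group. Replicate arrays had r = 0.997 in the untreated and in the Nutlin-3a group, with median absolute differences of 0.098 and 0.0955 on the log2 scale. Between untreated and Nutlin-3a arrays of SW48 r was nearly as high, from 0.9955 to 0.9963. Of 13 colorectal epithelial markers 10 were measured, and 9 of them lay above the median of all values (5.01) on all 4 SW48 arrays. The exception was KRT20, a keratin of differentiated colonic epithelium. The median is that of all 37270 probe sets, and only 3771 of 14118 genes lay below it on all 4 arrays. A place above the median therefore says little about cell type. The intestinal transcription factor gene CDX2 had an untreated signal of 9.60 ± 0.040 (SD, n = 2 arrays) in SW48, against means of 7.38 in HCT116 and 7.52 in RKO. The adhesion gene CEACAM5 stood at 9.25 ± 0.12 (SD, n = 2 arrays) in SW48 and at 4.37 and 4.67 in the other lines. Other epithelial markers had higher untreated means in HCT116 than in SW48. Among them were KRT19 (10.13 against 8.74), KRT18 (8.18 against 7.43) and KRT20 (5.27 against 4.41). The extraction text in the labels speaks of thyroids. Of 8 thyroid markers 5 were measured, with untreated means from 4.49 for the receptor gene TSHR to 5.99 for NKX2-1, and 3 lay above the median on all 4 arrays. In HCT116 the same 2 genes stood at 4.54 and 6.24. Of the measured markers of epithelial, thyroid, immune (4), fibroblast (3) and endothelial (3) cells, 0 were called in SW48 by limma, and 3 (CD14, DCN and TIE1) had an unadjusted p under 0.05. Their log2 fold changes ran from -0.14 to 0.32, the latter in the endothelial gene TIE1 (adjusted p = 0.153).

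Nutlin-3a changed a small share of the SW48 transcriptome, and the rises were larger than the falls. At an adjusted p under 0.05, 441 genes passed (3.12% of those tested), 195 higher (1.38%) and 246 lower (1.74%). At an unadjusted p under 0.05 there were 2290 genes (16.2%), 832 higher (5.89%) and 1458 lower (10.3%). The median log2 fold change was 0.51 among the rises (1.43-fold) and -0.40 among the falls (1.32-fold), beside -0.013 over all genes. A change of at least 1.5-fold was seen in 77 rises and 34 falls. The middle 90% of all genes, from the 5th to the 95th percentile, lay between -0.26 and 0.24. All 441 had both Nutlin-3a arrays on one side of both untreated arrays, which held for 6604 genes in all (46.8%), 2731 upward (19.3%) and 3873 downward (27.4%). The number of calls depended on single arrays: without SW48 untreated replicate 1 or 2 it was 190 or 251, and without Nutlin-3a replicate 1 or 2 it was 190 or 188. The direction with more calls depended on the processing: rises outnumbered falls in each of these 4 fits (105 to 85, 132 to 119, 103 to 87 and 100 to 88), after quantile normalization (222 to 215), with all probe sets of the table tested (250 to 203) and with SW48 fitted alone (75 to 40). Calls that held in each of these 4 fits, 124 genes (0.878%), are termed kept calls below. They were 76 rises (0.538%) and 48 falls (0.34%). Groups that did not overlap were also a condition of a kept call, which all 441 calls met. Each of these 4 fits left 1 array in an SW48 group, so a lost call does not single out an array.

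**Figure D1:**
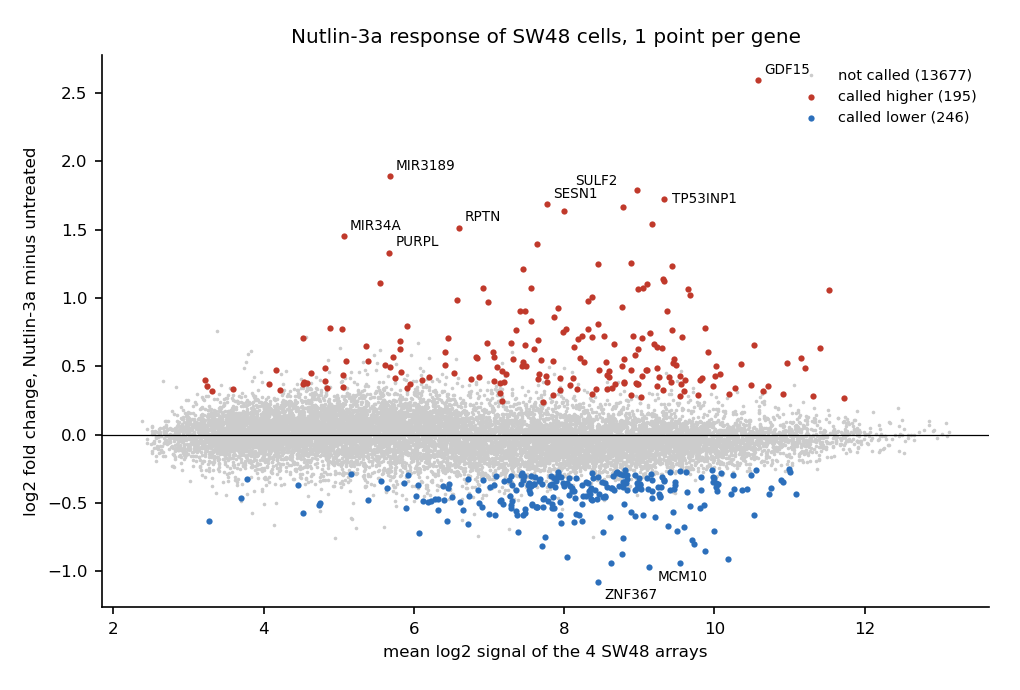
Each point is 1 of 14118 genes, with the mean log2 signal of the 4 SW48 arrays on the horizontal axis and the log2 fold change (Nutlin-3a minus untreated) on the vertical axis. Red points are the 195 genes called higher, blue points the 246 called lower and grey points the rest. GDF15 stands highest at 2.59 and ZNF367 lowest at -1.08.

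Most calls were protein-coding genes. Of 11730 coding genes 176 rose (1.5%) and 236 fell (2.01%), and of 1359 long noncoding RNA genes 9 rose (0.662%) and 8 fell (0.589%). Among 611 microRNA genes 3 rose (0.491%), and among 382 pseudogenes 7 rose (1.83%) and 1 fell (0.262%). Among 36 other noncoding genes 1 fell (2.78%). Dim genes gave few calls, 17 of the 3771 genes whose 4 SW48 signals all lay below the median of the table. Over all genes 3.12% were called.

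Genes listed as p53 targets or regulators made up 66 of the 195 rises. All gene lists used here were chosen with earlier results of these data known. Counts over a list are therefore descriptions, not independent evidence, and no list was tested. Over 7 lists of coding p53 targets and regulators, 174 different genes were measured, 66 rose, 1 fell and 107 were not called, beside 1.38% of all genes called higher and 1.74% called lower. The kept calls among them were 47 rises and 1 fall. The median log2 fold change over the 174 genes was 0.17, beside -0.013 over all genes. The range ran from -0.58 for TP73 to 2.59 for GDF15.

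**Figure D2:**
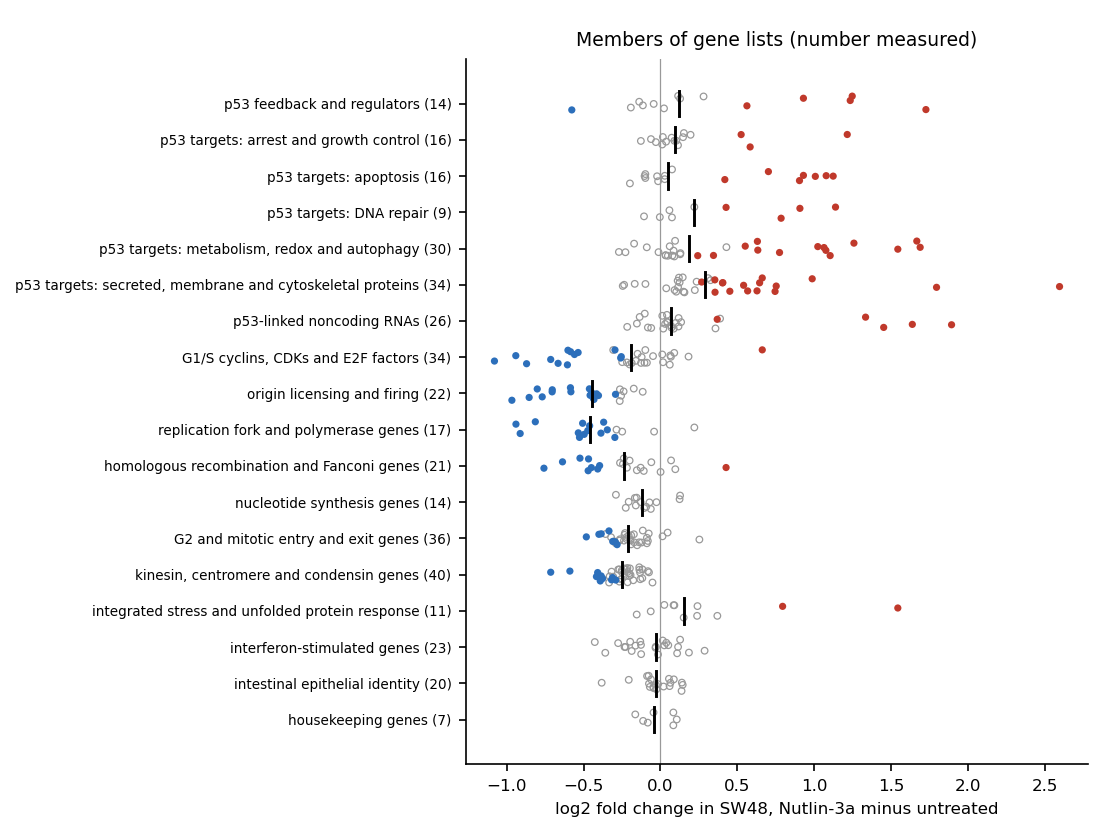
Log2 fold changes (Nutlin-3a minus untreated) in SW48 of the measured members of 18 gene lists, 1 point per gene, with the number measured in brackets. Red points were called higher, blue points lower and open points were not called, and the black bar is the list median. Points of the p53 lists extend to 2.59 on the right, and those of the replication lists reach -0.97 on the left.

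Of 14 measured genes of p53 feedback and regulation, 5 rose and 1 fell, and all 6 calls were kept (median 0.12). Over all genes 1.38% were called higher and 1.74% lower. TP53INP1, a nuclear protein of the p53 stress response and autophagy, read 8.54 and 8.38 in the untreated arrays and 10.18 and 10.19 with Nutlin-3a. Its change was 1.73 ± 0.077 (adjusted p = 5.16e-06). SUSD6, a membrane protein induced by DNA damage, read 7.86 and 7.80, then 9.04 and 9.11, a rise of 1.25 ± 0.086. TRIAP1, a small inhibitor of apoptosome assembly, rose from 8.75 and 8.87 to 9.99 and 10.10 (1.23 ± 0.083), and CCNG1, the cyclin G1 gene of the MDM2 feedback loop, rose by 0.56 ± 0.059. The groups did not overlap in any of these genes, as was required of kept calls. In TP53INP1 the Nutlin-3a arrays agreed to about 0.01. TP73, a p53 family member that is itself an E2F target, was the fall of this list, from 7.86 and 7.68 to 7.18 and 7.21 (-0.58 ± 0.073). MDM4, the partner of MDM2, stood at 0.12 ± 0.081 (adjusted p = 0.547).

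Of 16 genes of the arrest list 3 rose (median 0.097), beside 1.38% of all genes called higher. At an unadjusted p under 0.05 there were 6 rises and 0 falls, beside 5.89% and 10.3% of all genes. PLK3, a stress-responsive polo-like kinase, read 6.998 and 6.70 untreated and 7.98 and 8.14 treated, a rise of 1.21 ± 0.10 that was kept. The other 2 calls were not kept. PLK2, a related kinase, stood at 0.58 ± 0.093 (adjusted p = 0.00846), a call lost without untreated replicate 1 or either Nutlin-3a replicate. The phosphatase gene DUSP14 stood at 0.52 ± 0.092 (adjusted p = 0.0139), lost without either untreated replicate or Nutlin-3a replicate 2. The p21 gene is not analysed here.

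Of 16 apoptosis genes 7 rose, 6 of them kept, and the other 9 were not called, beside 1.38% of all genes called higher. At an unadjusted p under 0.05, 0 fell, beside 10.3% of all genes. BAX, the pore-forming effector of the mitochondrial route, rose from 8.78 and 8.75 to 9.82 and 9.95 (1.12 ± 0.072). The BH3-only genes BBC3, encoding PUMA, and PMAIP1, encoding NOXA, rose by 0.90 ± 0.098 and 0.70 ± 0.067. PIDD1, the scaffold of the PIDDosome, rose from 7.85 and 7.88 to 8.75 and 8.99 (1.01 ± 0.097). AEN, whose promoter is printed above, rose from 7.46 and 7.45 to 8.32 and 8.45 (0.93 ± 0.067). BAK1, the second pore-forming effector, had 0.42 ± 0.061 (adjusted p = 0.00568), a call lost without Nutlin-3a replicate 2. The list median was only 0.052, since genes such as BID (0.03) and BCL2L1 (-0.02) stayed near 0.

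IKBIP and APAF1 are neighbouring genes read in opposite directions, per RefSeq. IKBIP, an endoplasmic reticulum protein with a pro-apoptotic role, read 7.01 and 7.02 untreated and 8.16 and 8.02 with Nutlin-3a, a rise of 1.08 ± 0.082 (adjusted p = 8.41e-05). APAF1, the apoptosome scaffold, read 7.42 and 7.31 untreated and 7.36 and 7.43 with Nutlin-3a (0.03 ± 0.069, adjusted p = 0.894). The APAF1 groups overlapped, while those of IKBIP were more than 1 unit apart on average. In HCT116 and RKO both genes had positive values, 1.46 and 1.07 for IKBIP and 1.19 and 0.77 for APAF1.

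Of 9 measured targets of DNA repair and nucleotide supply 4 rose and all 4 were kept (median 0.22), beside 1.38% of all genes called higher. At an unadjusted p under 0.05 there were 0 falls, beside 10.3% of all genes. RRM2B, the p53-inducible subunit of ribonucleotide reductase, rose from 8.69 and 8.81 to 10.00 and 9.78 (1.14 ± 0.083). RPS27L, a ribosomal protein paralogue, rose by 0.91 ± 0.069 and the helicase gene ASCC3 by 0.78 ± 0.056. RAD51C, a gene of homologous recombination, rose from 9.33 and 9.34 to 9.69 and 9.82 (0.43 ± 0.061). PCNA, the replication clamp, stood at 0.22 ± 0.071 and did not pass (adjusted p = 0.144). Of the 3 measured genes of the list drawn from the study, which is not independent evidence of a direction, RRM2B was a kept rise and MATR3, encoding Matrin 3, stood at -0.05 ± 0.053 (adjusted p = 0.75). The third, the glutathione peroxidase gene GPX1, had 0.34 ± 0.073 (adjusted p = 0.0348), and that call was lost without any 1 of 10 arrays, the 4 of SW48, the 4 of RKO and the 2 untreated ones of HCT116.

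Metabolism, redox and autophagy targets included large and repeatable rises. Of 30 genes 14 rose and 12 of these were kept (median 0.19), beside 1.38% of all genes called higher. At an unadjusted p under 0.05, 2 genes were lower, beside 10.3% of all genes. The sestrin genes SESN1 and SESN2, stress-induced inhibitors of mTORC1, rose together. SESN1 read 6.84 and 7.01 untreated and 8.60 and 8.63 with Nutlin-3a (1.69 ± 0.070), and SESN2 read 8.46 and 8.33, then 9.92 and 9.95 (1.54 ± 0.078). The third family member, SESN3, stood at -0.27. DDIT4, another mTORC1 inhibitor, rose from 8.24 and 8.27 to 9.45 and 9.58 (1.26 ± 0.079). The autophagy regulator DRAM1 rose by 1.02 ± 0.064, the fructose bisphosphatase gene TIGAR by 1.08 ± 0.078 and the quinone oxidoreductase gene TP53I3 by 1.10 ± 0.094. In each of these kept rises the lowest Nutlin-3a array lay above the highest untreated array, as was required of kept calls.

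Among 34 genes of secreted, membrane and cytoskeletal proteins 16 rose, 8 of them kept (median 0.29), beside 1.38% of all genes called higher. There were 0 falls at an unadjusted p under 0.05, beside 10.3% of all genes. GDF15, a stress cytokine of the TGF-beta family, read 9.45 and 9.13 untreated and 11.87 and 11.89 with Nutlin-3a. Its rise of 2.59 ± 0.095 (6.04-fold, adjusted p = 2.44e-06) was the largest of all genes. SULF2, a heparan sulfate endosulfatase, read 8.02 and 8.13, then 9.88 and 9.86 (1.79 ± 0.19). A second SULF2 probe set gave 0.23 ± 0.097 (adjusted p = 0.281), so its size depended on the probe set. The semaphorin receptor gene PLXNB3 rose by 0.99 ± 0.10, the macrophage growth factor gene CSF1 by 0.75 ± 0.084 and the receptor gene NOTCH1 by 0.66 ± 0.085.

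Of 62 measured genes listed as other p53 targets 22 rose and 16 were kept (median 0.23), beside 1.38% of all genes called higher. At an unadjusted p under 0.05, 3 genes were lower, beside 10.3% of all genes. SPATA18, a protein of mitochondrial quality control, read 8.01 and 7.88 untreated and 9.52 and 9.70 treated (1.67 ± 0.10). DNAI3, a dynein intermediate chain, rose from 4.89 and 5.11 to 6.08 and 6.14 (1.11 ± 0.12). The chaperone gene HSPA4L rose by 0.63 ± 0.054, from 11.11 and 11.06 to 11.72 in both Nutlin-3a arrays. The ephrin gene EFNB1 rose by 1.07 ± 0.069.

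**Figure D3:**
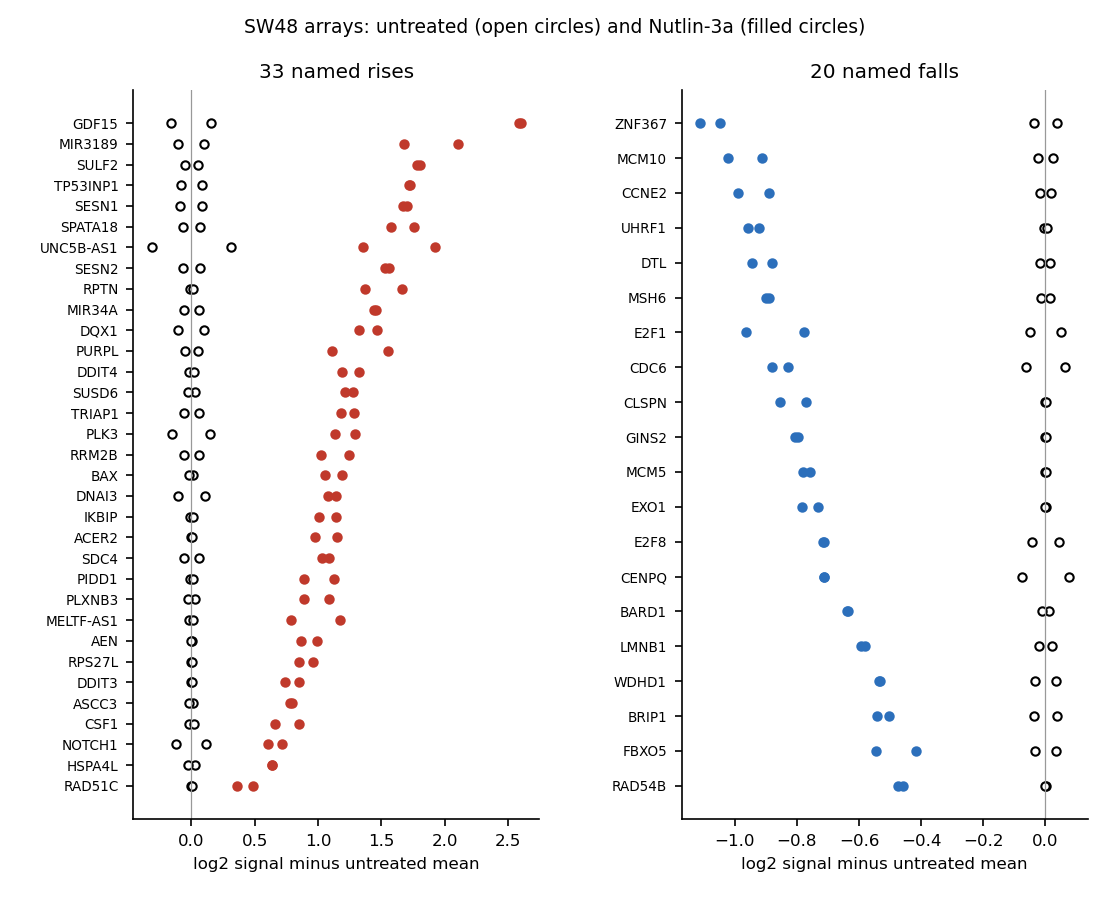
Log2 signal of each SW48 array minus the untreated mean of that gene, for 33 named kept rises (left, red) and 20 named kept falls (right, blue). Open circles are the 2 untreated and filled circles the 2 Nutlin-3a arrays. Filled and open circles do not overlap in any gene, which was a condition of a kept call. UNC5B-AS1 has the widest spread within groups.

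Noncoding RNAs contributed 4 of the 12 largest kept rises. Of 26 measured p53-linked noncoding RNAs 5 rose, 4 of them kept (median 0.070), beside 1.38% of all genes called higher. At an unadjusted p under 0.05, 1 was lower, beside 10.3% of all genes. MIR3189 read 4.84 and 4.63 untreated and 6.41 and 6.84 with Nutlin-3a, a rise of 1.89 ± 0.12. A probe set of an intronic microRNA can also read its host transcript, here GDF15, so the 2 rises cannot be taken as independent measurements. Whether it did so here was not tested. In HCT116 and RKO MIR3189 rose by 2.66 ± 0.12 and 2.60 ± 0.12, and GDF15 by 1.54 ± 0.095 and 1.33 ± 0.095. MIR34A, the source of the miR-34a arms printed above, read 4.28 and 4.40, then 5.78 and 5.80 (1.45 ± 0.079, adjusted p = 1.97e-05). Its host transcript MIR34AHG is not analysed here, and the array does not measure the mature microRNA.

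PURPL, whose promoter is printed above, rose from 5.05 and 4.95 to 6.12 and 6.55 (1.33 ± 0.14). UNC5B-AS1, antisense to the netrin receptor gene UNC5B, read 6.87 and 7.49 untreated and 8.53 and 9.10 with Nutlin-3a, a rise of 1.64 ± 0.22. The sense gene UNC5B had 0.35 ± 0.069 (adjusted p = 0.0238), a call lost without either untreated replicate or Nutlin-3a replicate 2. MELTF-AS1, antisense to the iron-binding protein gene MELTF, rose from 7.81 and 7.84 to 8.61 and 8.999 (0.98 ± 0.13), while MELTF stood at 0.13 ± 0.060 (adjusted p = 0.322). Strand is not given for the probe sets, so the signals of a sense and antisense pair were taken as labelled. The fifth call of the list, LINC00475, at 0.37 ± 0.075, was lost without untreated replicate 2 or either Nutlin-3a replicate.

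RPTN and DQX1 were large rises outside the p53 lists. RPTN, an epidermal matrix protein gene, read 5.82 and 5.85 untreated and 7.50 and 7.21 with Nutlin-3a (1.51 ± 0.13). DQX1, a gene of the DEAQ-box helicase family, rose from 7.04 and 6.83 to 8.27 and 8.40 (1.39 ± 0.10). In both genes all Nutlin-3a arrays lay at least 1 unit above the untreated ones.

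Genes listed under S phase entry, DNA replication and repair made up 51 of the 246 falls. These lists too were chosen with earlier results of these data known, so the counts are descriptions. Over 6 lists (G1/S control, origin licensing and firing, replication fork, nucleotide synthesis, homologous recombination with Fanconi genes, and mismatch repair) 113 different genes were measured. Of these genes 51 fell, 2 rose and 60 were not called, with 30 falls and both rises kept. The median was -0.26, beside -0.013 over all genes. Over all genes 1.74% were called lower and 1.38% higher.

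Of 34 genes of G1/S control 13 fell and 1 rose, with 9 falls and the rise kept (median -0.19). Over all genes 1.74% were called lower and 1.38% higher. At an unadjusted p under 0.05, 19 of the 34 were lower and 2 higher, beside 10.3% and 5.89% of all genes. ZNF367, a zinc finger factor gene and E2F target, read 9.03 and 8.96 untreated and 7.88 and 7.95 with Nutlin-3a, and fell by 1.08 on the log2 scale (standard error 0.061, adjusted p = 2.31e-05). It was the only fall of at least 2-fold. CCNE2 and CCNE1, the E-type cyclin genes that drive S phase entry with CDK2, had changes of -0.94 ± 0.079 and -0.67 ± 0.056. CDC25A, the phosphatase that activates CDK2, fell by 0.60 (-0.60 ± 0.074). CDK2 itself had -0.26 ± 0.053 (adjusted p = 0.0295), a call lost without any 1 of the 4 SW48 or 2 untreated HCT116 arrays. The D-type cyclin gene CCND1 and the kinase gene CDK4 stood at 0.18 and -0.10 and were not called.

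The E2F family split by member. E2F1, an activator, read 9.25 and 9.15 untreated and 8.24 and 8.42 with Nutlin-3a (-0.87 ± 0.083, adjusted p = 0.000339). The activator E2F2 changed by -0.56 ± 0.073, and E2F3 stood at -0.31 ± 0.081 without passing (adjusted p = 0.0821). E2F8, an atypical repressor, fell from 8.83 and 8.92 to 8.16 in both Nutlin-3a arrays (-0.71 ± 0.075). E2F7, the other atypical repressor and a known p53 target, rose from 8.98 and 8.76 to 9.46 and 9.60 (0.66 ± 0.084, adjusted p = 0.00249). E2F7 was the 1 rise of the list.

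Most origin licensing and firing genes fell. Of 22 genes 16 passed, 9 of them kept (median -0.44), beside 1.74% of all genes called lower. At an unadjusted p under 0.05, 21 were lower and 0 higher, beside 10.3% and 5.89% of all genes. MCM10, a replisome assembly factor, read 9.63 and 9.59 untreated and 8.70 and 8.59 treated (-0.97 ± 0.060). CDC6, which loads the MCM helicase at origins, fell from 10.24 and 10.37 to 9.48 and 9.43 (-0.85 ± 0.065). GINS2, of the GINS helicase cofactor, fell from 10.12 in both untreated arrays to 9.33 and 9.32 (-0.80 ± 0.063). Among the 6 subunits of the MCM2 to MCM7 helicase, MCM5 (-0.77 ± 0.062), MCM2 (-0.70 ± 0.058), MCM6 (-0.70 ± 0.056) and MCM3 (-0.58 ± 0.055) were kept falls. MCM4 and MCM7 were called at -0.44 and -0.43. The MCM4 call did not hold when untreated replicate 2 or Nutlin-3a replicate 1 was left out, and that of MCM7 did not hold without untreated replicate 2 or either Nutlin-3a replicate. CDT1 and CDC45, a licensing factor and a helicase cofactor, both stood at -0.26 and were not called.

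Of 17 replication fork and polymerase genes 13 fell, 7 of them kept (median -0.46), beside 1.74% of all genes called lower. At an unadjusted p under 0.05, 15 were lower and 1 higher, beside 10.3% and 5.89% of all genes. UHRF1, which guides maintenance DNA methylation, read 10.00 and 10.01 untreated and 9.05 and 9.09 with Nutlin-3a (-0.94 ± 0.065). DTL, the substrate receptor of the CRL4 ligase that degrades CDT1, fell from 10.66 and 10.62 to 9.76 and 9.70 (-0.91 ± 0.058). CLSPN, the checkpoint adaptor claspin, had -0.81 ± 0.088, and its second probe set -0.27 ± 0.075 (adjusted p = 0.101). WDHD1, a polymerase alpha tether, and FEN1, the flap endonuclease, had -0.53 ± 0.061 and -0.47 ± 0.059. TOP2A, the mitotic topoisomerase, stood at -0.04.

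Of 14 nucleotide synthesis genes 0 passed in limma's test (median -0.12). At an unadjusted p under 0.05, 7 were lower and 1 higher, beside 10.3% and 5.89% of all genes. RRM1 and RRM2, the replicative ribonucleotide reductase subunits, stood at -0.09 ± 0.057 and -0.15 ± 0.066, while the p53-inducible subunit RRM2B rose by 1.14 ± 0.083. The thymidylate synthase gene TYMS stood at 0.12 ± 0.055 (adjusted p = 0.298).

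Of 21 homologous recombination and Fanconi genes 8 fell and 1 rose, with 4 falls and the rise kept (median -0.24). Over all genes 1.74% were called lower and 1.38% higher. EXO1, a resection nuclease that also acts in mismatch repair, fell from 9.16 in both untreated arrays to 8.38 and 8.43 (-0.76 ± 0.060). BARD1, the partner of BRCA1, had -0.64 ± 0.059 and the helicase gene BRIP1 -0.52 ± 0.062. RAD54B, a recombination motor, fell from 8.60 and 8.59 to 8.12 and 8.13 (-0.47 ± 0.062). RAD51C was the rise. Of 6 mismatch repair genes MSH6 and EXO1 fell and 4 were not called, beside 1.74% of all genes called lower. MSH6, a mismatch recognition protein gene, read 8.50 and 8.47, then 7.59 and 7.60 (-0.89 ± 0.061).

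Over 2 lists of mitotic genes 76 were measured and 17 fell, 3 of them kept (median -0.23), beside 1.74% of all genes called lower. At an unadjusted p under 0.05, 24 of 36 G2 and mitotic genes and 30 of 40 kinesin, centromere and condensin genes were lower, and 1 and 0 were higher, beside 10.3% and 5.89% of all genes. FBXO5, the inhibitor of the anaphase-promoting complex, had -0.48 ± 0.067. CENPQ, a kinetochore protein, and LMNB1, the lamin B1 gene, had -0.71 ± 0.096 and -0.59 ± 0.059. CCNB1, the mitotic cyclin, stood at -0.11 ± 0.076 (adjusted p = 0.519) and CDK1 at -0.12.

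Other stress and identity lists held from 0 to 2 calls each. Of 11 integrated stress and unfolded protein response genes 2 rose, both kept (median 0.15), beside 1.38% of all genes called higher. These were SESN2 and DDIT3, the transcription factor CHOP, which went from 5.51 and 5.52 to 6.25 and 6.36 (0.79 ± 0.11). ATF4, its upstream factor, stood at 0.24 and was not called. Of 20 Wnt and stem cell genes 2 fell, beside 1.74% of all genes called lower, and neither call was kept. LGR5, an intestinal stem cell receptor, read 6.73 and 6.78, then 6.17 and 6.07 (-0.63 ± 0.093, adjusted p = 0.0059), a call lost without Nutlin-3a replicate 2. MYB, a transcription factor of proliferating cells, had -0.54 ± 0.091, lost without untreated replicate 2 or either Nutlin-3a replicate. Lists of 23 interferon-stimulated and 20 intestinal identity genes gave 0 calls in limma's test (medians -0.03 and -0.03), with 6 and 1 genes at an unadjusted p under 0.05, beside 16.2% of all genes. Of 31 ribosomal protein genes 0 passed, 4 were higher at an unadjusted p under 0.05 (5.89% of all genes) and the largest value was 0.47 ± 0.12 for RPS18 (adjusted p = 0.0691). Of 7 housekeeping genes 0 passed and 0 had an unadjusted p under 0.05.

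Promoter windows were available for 10568 measured genes and were searched on both strands. The E2F motif was any of the words TTTCCCGC, TTTGGCGC, TTTCGCGC and TTTGCCGC. It was present in 4.52% of all windows, in 3.25% of the 154 windows of genes called higher and in 20.7% of the 203 windows of genes called lower. Among 41 windows of kept falls 21 held it (51.2%). They include the printed windows of E2F1, ZNF367, DTL and MSH6, and those of MCM2, MCM3, MCM6, CDC6, GINS2, UHRF1, CLSPN and EXO1. Windows of kept falls without these words include those of MCM10, CCNE1, BARD1, BRIP1 and WDHD1. The origin list held the motif in 11 of 17 windows (64.7%) and the fork list in 6 of 14 (42.9%). The median GC content was 63.3% over all windows and 65.0% over those of kept falls.

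The p53 consensus was required in both half-sites with at most 2 mismatches in all, the core bases intact and at most 1 base between them. It was present in 27 of the 10568 windows (0.255%), in 4 of 154 windows of genes called higher (2.6%) and in 0 of 203 of genes called lower. The 4 were AEN, PURPL, PTCHD4 and NDUFAF8. PTCHD4, a patched-domain protein gene, had 0.78 ± 0.13, lost without untreated replicate 1 or Nutlin-3a replicate 2, and NDUFAF8, a complex I assembly factor gene, had 0.54 ± 0.082, lost without untreated replicate 2 or either Nutlin-3a replicate. The CHR word TTTGAA occurred in 11.8% of all windows and 9.76% of those of kept falls, and the CCAAT word in 35.8% and 46.3%. The E2F, CHR and CCAAT words do not contain one another. These shares are descriptions of letters in a short window, and no test was made of them.

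**Figure D4:**
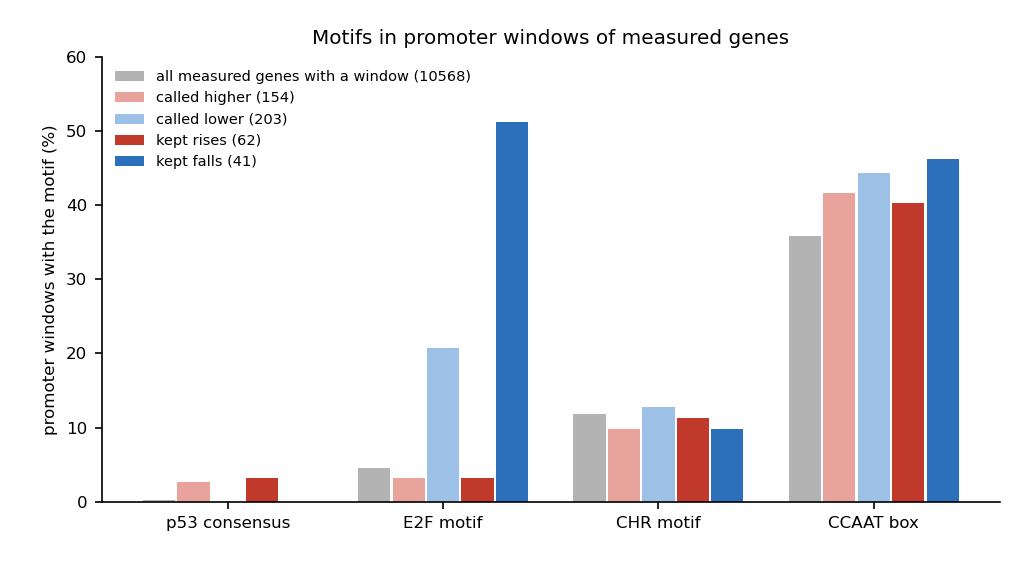
Percent of 300-base promoter windows that hold each motif on either strand, by gene set, with the number of windows in brackets. The E2F motif stands at 51.2% in kept falls (dark blue) and at 4.52% over all measured genes (grey).

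Calls in SW48 were set beside those in the other lines, which have untreated arrays of their own. Of the 195 SW48 rises 123 were also called higher in HCT116 (63.1% of the SW48 rises and 28.3% of the 435 of HCT116). With RKO 83 were shared (42.6% and 48% of 173). Of the 246 falls 97 were shared with HCT116 (39.4% and 33.9% of 286) and 28 with RKO (11.4% and 25% of 112). The genes that rose in SW48 had median changes of 0.51 in SW48, 0.44 in HCT116 and 0.30 in RKO. Those that fell had -0.40, -0.23 and -0.13. These genes were picked by their SW48 values, so the order of the medians is only a description.

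A change was termed different in SW48 only where it differed from that of HCT116 and from that of RKO with the same sign. The change differed from that of HCT116 in 30 genes (0.212%), from that of RKO in 51 (0.361%) and from both in 11 (0.0779%), 6 above both lines (0.0425%) and 5 below both (0.0354%). At an unadjusted p under 0.05 in both tests the number was 530. MIR34A was the 1 gene of the 11 whose call held without each array in turn. Its untreated and Nutlin-3a signals were 3.73, 3.61, 3.78 and 3.85 in HCT116 and 3.53, 3.70, 3.85 and 3.77 in RKO, so that all 8 arrays of those lines lay below the lowest SW48 array (4.28). These 8 signals and the untreated SW48 ones lay below the median of the table (5.01), and whether the probe set was above background there is not known, so the size of the difference is uncertain. The SW48 change exceeded the mean of the other lines by 1.28 ± 0.096 (adjusted p at most 0.00578 over both tests), and up to 0.039 with 1 of the 12 arrays left out. The call was lost with the replicate number as a block.

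SPATA18 and RPTN rose in SW48 and had low signals in the other lines. The untreated SPATA18 signals and all RPTN signals of those lines lay below the median of the table (5.01). Whether these probe sets were above background there is not known, so the sizes of both differences are uncertain. SPATA18 had untreated signals of 4.55 and 4.77 in HCT116 and 4.51 and 4.62 in RKO, against 8.01 and 7.88 in SW48. Its change was 0.38 in HCT116 and 0.07 in RKO, and the difference of 1.44 ± 0.13 was called (adjusted p at most 0.0133). That call was lost without HCT116 Nutlin-3a replicate 2, SW48 untreated replicate 2 or SW48 Nutlin-3a replicate 2 (adjusted p up to 0.0624). RPTN ranged from 3.96 to 4.31 over the 8 arrays of the other lines, and its changes there were 0.01 and 0.02. Its difference of 1.503 ± 0.16 (adjusted p at most 0.0186) was lost without HCT116 Nutlin-3a replicate 2, SW48 untreated replicate 1 or 2, SW48 Nutlin-3a replicate 1 or any of the 4 RKO arrays (adjusted p up to 0.0828).

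GDF15 rose in all 3 lines, from a lower start in SW48. Untreated signals were 11.39 and 11.24 in HCT116 and 11.26 and 11.29 in RKO, beside 9.45 and 9.13 in SW48. With Nutlin-3a they were 12.88 and 12.84, 12.63 and 12.58, and 11.87 and 11.89, so SW48 stayed below both other lines in level. Its rise was larger by 1.16 ± 0.12 (adjusted p at most 0.0199), a call lost without HCT116 untreated replicate 1, HCT116 Nutlin-3a replicate 1 or 2, or SW48 Nutlin-3a replicate 1 or 2 (adjusted p up to 0.0982). SDC4, a heparan sulfate proteoglycan gene, rose by 1.06 ± 0.066 in SW48 and had 0.42 and 0.11 in HCT116 and RKO. Its difference of 0.79 ± 0.081 (adjusted p at most 0.0303) was lost without any 1 of 10 arrays, all but the untreated RKO ones (adjusted p up to 0.123).

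Below both other lines stood APAF1, LACC1, CCNG2, ACER2 and MCM5. APAF1 was lower by 0.95 in its change (-0.95 ± 0.085, adjusted p at most 0.0193), lost without SW48 untreated replicate 1, SW48 Nutlin-3a replicate 1 or 2, RKO untreated replicate 2 or RKO Nutlin-3a replicate 2 (adjusted p up to 0.0909). LACC1, a purine nucleoside enzyme gene of macrophage metabolism, had changes of 1.54 and 1.03 in HCT116 and RKO. In SW48 it read 5.15 and 5.07 untreated and 4.80 and 5.00 with Nutlin-3a, a difference of -1.497 ± 0.14 that was lost without any 1 of the SW48 or RKO arrays (adjusted p up to 0.109). CCNG2, the cyclin G2 gene, had 0.63 and 0.87 in the other lines and 0.09 in SW48. ACER2, a Golgi ceramidase gene, rose in all 3 lines, by 1.06 ± 0.073 in SW48 and by 1.83 and 1.71 in HCT116 and RKO. MCM5 fell in SW48 and had -0.13 and -0.20 elsewhere. The differences of CCNG2 (-0.66), ACER2 (-0.70) and MCM5 (-0.61) were called at adjusted p-values of at most 0.0359, 0.0404 and 0.034, and each call was lost without any 1 of the 12 arrays (adjusted p up to 0.171, 0.138 and 0.135). A change of scaling also removed calls: those of SDC4, GPR63, ACER2 and MCM5 were lost with each array centred on its median, and that of CCNG2 after quantile normalization. All 5 were lost with all probe sets of the table tested.

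**Figure D5:**
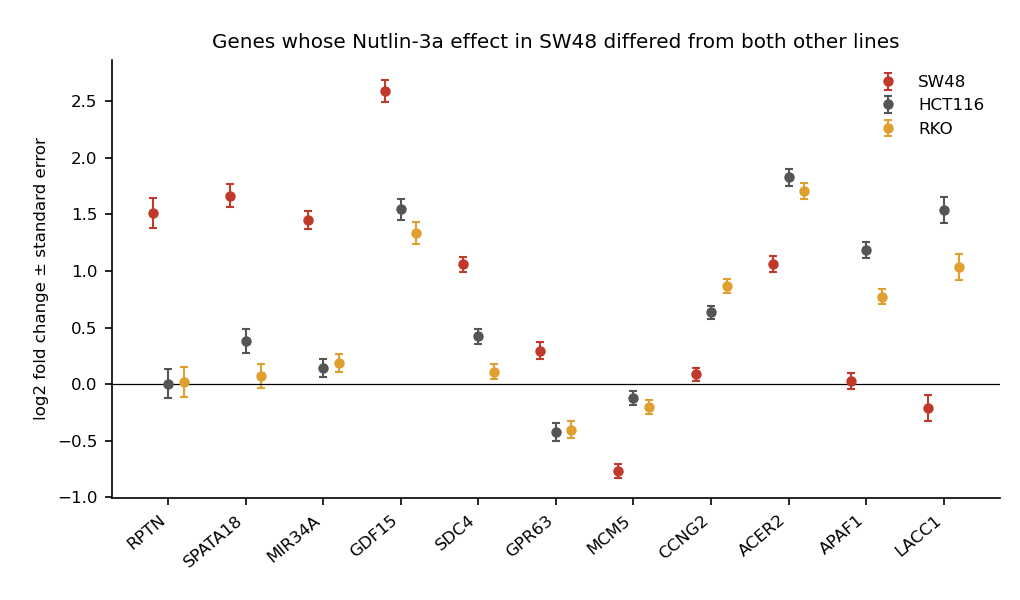
Log2 fold change (Nutlin-3a minus untreated) ± standard error in SW48 (red), HCT116 (grey) and RKO (orange) for the 11 genes whose change in SW48 differed from both other lines, with n = 2 arrays per group. RPTN, SPATA18 and MIR34A stand near 1.5 in SW48 and below 0.4 in the other lines, while APAF1, CCNG2 and LACC1 stand near or below 0 in SW48 and above 0.6 elsewhere.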

How the data were processed

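Expression of SW48, HCT116 and RKO cells, untreated or given 10 µM Nutlin-3a for 8 h, was measured on 12 arrays (2 per group). The values are the authors' deposited log2 signals, 1 per probe set and array. Per the submitters' processing notes, GCOS was used; background correction, normalization and genome build are each not stated there or in the labels. The log base is unstated and 2 was inferred from their range. The growth text names HCT116 only, the extraction text speaks of thyroids, and the dye and labelling fields differ. Signal, not reads, was measured, so the number of arrays limits the precision.

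Symbols came from the platform annotation, and all 14530 gene numbers were found in RefSeq. For the 395 symbols with several probe sets, the one with the highest mean over the 12 arrays was used. Limma 3.58.1 in R 4.3.3 was fitted to 6 group means (6 residual degrees of freedom) with empirical Bayes moderation, with Benjamini-Hochberg adjustment over 14118 genes. SW48 effects were also tested against each other line. The fit was tested on simulated data. The members and the 40 gene lists were chosen with earlier results of these data known, so no list was tested. Histone and integrin lists are not analysed here.

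Named genes were the 12 largest kept rises and falls, up to 4 kept members of each list (or its largest change), the genes named with the study, up to 6 genes above and 6 below both other lines, up to 5 noncoding rises and falls, and host or sense genes. Other genes with values were chosen after these were seen. Replicate numbers did not pair the arrays. Alternatives were another normalization, all probe sets, another variance model, SW48 alone, a filter on dim genes, a stricter threshold, a replicate block and each array left out.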

Additional observations from a re-analysis of the deposited data

Results flagged for a closer look

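In 11 genes the SW48 change differed from that of HCT116 and of RKO in limma's tests, 6 above and 5 below. Relative to the mean of the other lines, the SW48 change was larger by 1.503 in RPTN, 1.44 in SPATA18, 1.28 in MIR34A, 1.16 in GDF15, 0.79 in SDC4 and 0.71 in GPR63. It was different by -0.61 in MCM5, -0.66 in CCNG2, -0.70 in ACER2, -0.95 in APAF1 and -1.497 in LACC1. The call of MIR34A held in 19 of 20 alternatives and that of SPATA18 in 15 of 20, and the other 9 genes held in fewer. GPR63 had 19 alternatives, since it is not tested when dim genes are left out.

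GPR63, an orphan receptor gene, was dim in SW48, at 3.34 and 3.18 untreated and 3.61 and 3.50 with Nutlin-3a, beside 7.13 to 8.54 over the 8 arrays of the other lines. Its change was 0.30 ± 0.077 in SW48 (adjusted p = 0.0797), -0.42 in HCT116 and -0.40 in RKO. The difference was lost without any 1 of the 12 arrays (adjusted p up to 0.149).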

How the results depend on the processing

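Of 441 calls (195 higher, 246 lower), the count was 870 (301 and 569) when the prior followed the intensity and was robust, 115 (75 and 40) with SW48 arrays fitted alone, 188 (104 and 84) at the 0.01 threshold and 218 (115 and 103) with the replicate block. Without dim genes 383 were lower. With 1 array left out, calls ranged from 188 to 394, rises from 100 to 184 and falls from 85 to 212. The genes that differed from both other lines, 11, were 7 with each array centred on its median, 41 with that prior, 1 at the 0.01 threshold and 0 with the replicate block (limma, 500 at an unadjusted p under 0.05), and from 2 to 6 with 1 array left out. Called list members, 147, were 74 with SW48 alone. The share of rises, 44.2%, was 50.8% after quantile normalization, 36.2% after centring, 55.2% with all probe sets of the table and 65.2% with SW48 alone, so the more frequent direction was not stable. No named gene changed sign in a setting where it was called. Of the 53 kept genes named by rule, 48 kept their call in all settings run. The 4 fits without 1 SW48 array are among these settings, and kept genes passed them by definition. UNC5B-AS1, NOTCH1, RAD51C, RAD54B and FBXO5 lost the call in limma with SW48 alone (adjusted p from 0.0538 to 0.087). Same-numbered arrays did not deviate together (correlations 0.041, -0.031 and -0.031), so the replicate block rests on a number alone. With 2 arrays per group, small changes in dim genes are the least certain.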

Other observations

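Several kept calls lay outside the lists and were chosen here after their values were seen. NECTIN4, a nectin family adhesion gene, rose from 6.32 and 6.45 to 7.37 and 7.55 (1.08 ± 0.11), with 0.54 in HCT116 and 0.12 in RKO. The retinal reductase gene DHRS3 rose from 6.49 and 6.52 to 7.47 in both Nutlin-3a arrays (0.97 ± 0.092), and the kinase gene PRKD2 by 0.91 ± 0.066. TRAF4, an adaptor of TNF receptor family signalling, and STAT3, a cytokine-responsive transcription factor, rose by 0.86 ± 0.069 and 0.53 ± 0.054. KRT5, a basal keratin, rose from 5.08 and 5.00 to 5.58 and 5.79 (0.65 ± 0.091), with -0.02 and 0.01 in the other lines. Among the falls, KANK2, an adhesion and cytoskeletal regulator, read 8.16 and 8.08, then 7.38 and 7.35 (-0.75 ± 0.079). FIGNL1, a recombination ATPase, had -0.65 ± 0.092, CASP8AP2, a gene linked to histone expression, -0.65 ± 0.069, and WDR76 -0.68 ± 0.059.

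Probe sets of 1 gene did not always agree. Of 395 symbols with several probe sets, 384 had none called, 10 had some called and 1 had calls in opposite directions. The last was RHOBTB2, at -0.53 ± 0.083 (adjusted p = 0.00855) and 0.50 ± 0.10 (adjusted p = 0.0297). The antisense gene GAS6-AS1 had 0.41 ± 0.11 (adjusted p = 0.0885) on one probe set and 1.30 ± 0.13 (adjusted p = 0.000586) on another.

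Probe sets without a symbol also moved. In a fit over all 37270 probe sets, 110 of the 22740 unnamed ones rose and 74 fell (0.809%), with 25 rises and 0 falls of at least 2-fold. The largest rise, 2.07 ± 0.11, went from 4.96 and 4.90 untreated to 7.003 and 6.997 with Nutlin-3a.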
